A study of Mus musculus with 29 samples.

Results

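The data described here are 8 RNA-seq libraries of subcutaneous white adipose tissue from wild-type male mice, out of 29 libraries in the series: 4 from mice given CL316,243 and 4 from mice given NaCl (saline). They were chosen by their library codes, M11 to M14 for CL316,243 and M1 to M4 for saline, which stand together in 1 of the authors' tables. The mouse numbers 1 to 4 used below are the replicate numbers of the titles. Both groups carry the wild-type allele of Ncoa1, the gene knocked out in the other genotype of the series. CL316,243 was given at 0.5 mg/kg body weight by intraperitoneal injection for 7 days, per the treatment protocol. In the treatment field of the 4 CL316,243 mice the last digits of the compound name count upwards from mouse to mouse and none reads CL316,243, so the groups were taken from the titles. No source used here states the strain, the age or the interval between the last injection and tissue collection.

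CL316,243 is a synthetic agonist of the beta3-adrenergic receptor, which in mice sits mainly on adipocytes. Its signal runs through the stimulatory G protein, adenylyl cyclase, cyclic AMP and protein kinase A to the release of fatty acids from lipid droplets and to transcription of thermogenic genes. With repeated dosing, white fat depots of mice acquire beige adipocytes. These cells are rich in mitochondria and carry uncoupling protein 1 (UCP1), which lets protons return across the inner mitochondrial membrane without making ATP, so that the energy of respiration is released as heat.

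The deposited values are fragments per kilobase of transcript scaled to the mapped reads of the library (FPKM) for 18658 genes, so they are already divided by depth and gene length, and the read counts behind them are not used here. The summed FPKM of the 8 libraries ran from 577899 to 623713, and 11667 to 12162 genes reached 1 FPKM in a library. Adipocyte markers, among them Fabp4, Adipoq and Plin1, were high in all 8 libraries, with a mean log2(FPKM + 1) over 10 genes of 10.99 to 11.47. The 4 Y-linked genes in the table were detected in all 8, at 51.4 to 61.4 FPKM summed. Ncoa1 itself read 7.41, 9.16, 7.77 and 7.86 FPKM in saline mice 1 to 4 and 6.06, 5.98, 6.58 and 5.73 FPKM in CL316,243 mice 1 to 4. The CL316,243 values all lay below the saline values, but the difference of -0.35 on the log2(FPKM + 1) scale missed the threshold (SE 0.12, adjusted p = 0.056; adjusted p = 0.04 with the replicate number as a block). In the 6 knockout males of the same table, Ncoa1 read 1.47 to 2.87 FPKM, below every wild-type value.

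A library in each group stands apart by tissue content. CL316,243 mouse 4 held skeletal muscle RNA: its 29 muscle markers summed to 5681 FPKM against 129 to 155 FPKM in each of the other 7 libraries, and their mean log2(FPKM + 1) was 6.08 against 0.81 to 0.90. Acta1, skeletal muscle actin, stood at 868 FPKM in that library and at 7.61 to 27.6 FPKM in the other 7. Saline mouse 3 was nearly free of lymphocyte RNA: 8 B cell markers summed to 1.23 FPKM there against 102 to 627 FPKM in the others, and 10 T cell markers to 4.93 FPKM against 108 to 271 FPKM. The counts of called genes in all and in each list are therefore also given without CL316,243 mouse 4, and the count in all without saline mouse 3 as well.

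The test covered 12022 genes that reached 1 FPKM in 4 or more of the 8 libraries (limma on log2(FPKM + 1), Benjamini-Hochberg). Of these, 668 were higher after CL316,243 and 705 were lower at an adjusted p under 0.05, which is 5.56% and 5.86%. The SEs and p-values rest on the spread within all groups of the 24 libraries fitted, females and knockouts included. The median change over all genes was -0.06 on the log2 scale; FPKM is scaled within each library, so all changes are relative and a general rise or fall of RNA would not be seen. Large changes went mostly upwards: 164 genes rose and 96 fell by at least 1 log2 unit, and 31 rose and 1 fell by at least 2. Leaving out the muscle-rich CL316,243 mouse 4 left 494 higher genes (4.11%) and 324 lower genes (2.7%), of which 486 and 317 were among those called with all 8 libraries. Without saline mouse 2 the totals were 501 higher and 365 lower, and without saline mouse 3 they were 514 and 377. With the replicate number as a block and the 8 libraries alone, 978 genes were higher and 1557 lower. The CL316,243 values lay above every saline value for 1163 genes (9.67%) and below every saline value for 2084 genes (17.3%).

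**Figure D1:**
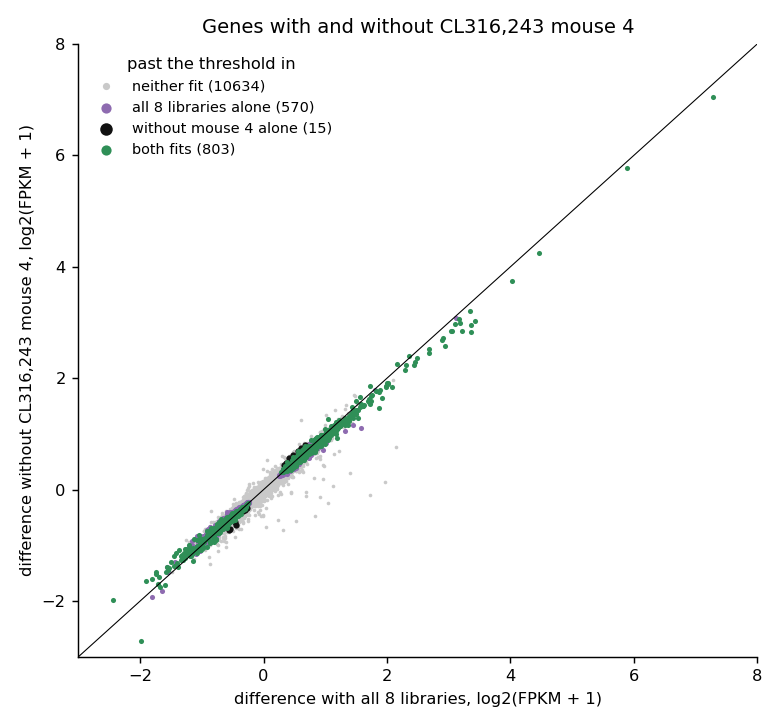
Change of each of the 12022 genes between CL316,243 and saline, as a difference in mean log2(FPKM + 1), with all 8 libraries (x axis) and without CL316,243 mouse 4 (y axis). Points are genes, coloured by the fit in which they pass an adjusted p of 0.05, and the line marks equal values. The 803 genes called in both fits lie along the line, and a small set of grey points to its lower right has a change that shrinks without mouse 4.

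Thermogenic genes showed the largest rises. Ucp1 (chr8:83290348-83298456, GRCm38), which encodes the uncoupling protein itself, read 3.41, 0.51, 0.29 and 1.24 FPKM in saline mice 1 to 4 and 401, 219, 237 and 529 FPKM in CL316,243 mice 1 to 4. It went from a mean of 1.36 ± 1.42 to 347 ± 146 FPKM (SD, n = 4 each), a change of 7.28 on the log2(FPKM + 1) scale (SE 0.50, adjusted p = 4.8e-08). The pseudocount of 1 holds that value down, since the ratio of the means was 254. Fabp3, a fatty acid binding protein of heart, muscle and brown fat, read 0.66, 0.14, 0.79 and 0.22 FPKM under saline and 92.7, 60.0, 83.0 and 105 FPKM under CL316,243, a rise of 5.89 (SE 1.09, adjusted p = 0.0014). Its level in the muscle-rich mouse 4 was 105 FPKM beside 92.7 FPKM in mouse 1, and the rise without mouse 4 was 5.78.

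Elovl3, a brown fat enzyme that lengthens fatty acids, was at 0.00 to 0.16 FPKM in the saline mice and at 21.2, 10.4, 11.0 and 30.4 FPKM in CL316,243 mice 1 to 4 (change 4.02, SE 0.38, adjusted p = 1.3e-06). Cox7a1, the heart and brown fat form of a cytochrome oxidase subunit, read 55.1, 22.6, 23.4 and 24.5 FPKM against 691, 484, 550 and 1062 FPKM (change 4.47, SE 0.56, adjusted p = 2.5e-05). A second such subunit, Cox8b, rose by 2.68 (SE 0.32) from 231 to 555 FPKM up to 1746 to 3221 FPKM. Cidea, a lipid droplet protein of brown adipocytes, rose by 2.68 (SE 0.34) from 67.7 to 146 FPKM up to 455 to 1029 FPKM. In these 6 genes no CL316,243 value overlapped a saline value. Saline mouse 1 had the highest saline value in all of them but Fabp3, level with mouse 4 in Elovl3.

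Of 30 genes on the thermogenic list, 24 passed the expression filter. Among these 24, 15 rose, 2 fell and 7 did not pass the test, with a median change of 1.27 beside the -0.06 of all genes; without mouse 4, 14 rose and 1 fell, with a median of 1.04. The risers beyond those named include Cpt1b, which admits long-chain fatty acids to mitochondria (change 2.90), Acot11, an acyl-CoA thioesterase (2.94), Letmd1, a mitochondrial protein of brown fat (1.49), S100b (1.58), Plin5, a perilipin that ties droplets to mitochondria (1.53), and the nuclear receptor gene Ppara (1.36). Regulators of the programme moved less. Ppargc1a, the coactivator PGC-1alpha, stood at 1.10 to 1.93 FPKM under saline and 1.25 to 1.75 FPKM under CL316,243 (change 0.03, SE 0.16, adjusted p = 0.93), while its relative Ppargc1b rose by 0.84 (SE 0.18, adjusted p = 0.0038). Prdm16, a determinant of brown and beige adipocyte identity, fell by 0.43 (SE 0.13, adjusted p = 0.038), from 2.63 to 3.09 FPKM down to 1.84 to 2.10 FPKM, a call lost without mouse 4 at an almost equal change of -0.42 (adjusted p = 0.094; 0.0016 to 0.097 over all alternatives). Slc29a1, a nucleoside transporter, also fell (-0.44, SE 0.12, adjusted p = 0.023). Dio2, which activates thyroid hormone, was under the filter, at 0.23 to 0.69 FPKM in saline mice and 0.44 to 1.71 FPKM in CL316,243 mice.

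**Figure D2:**
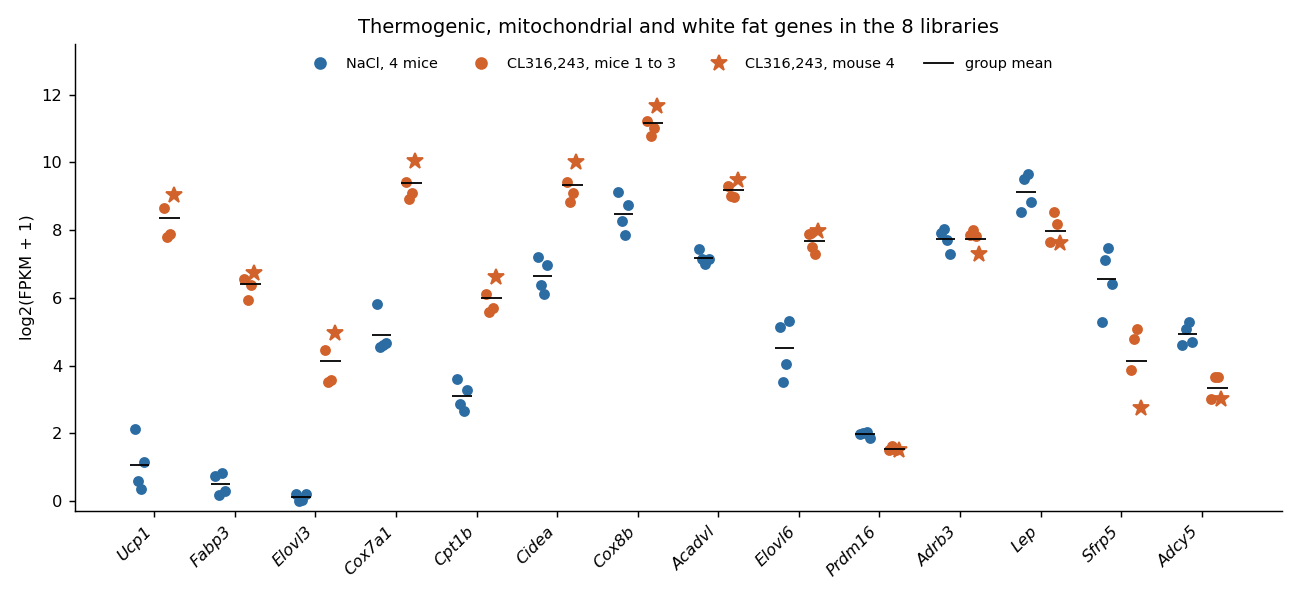
Levels of 14 genes as log2(FPKM + 1) in each of the 8 libraries; blue points are saline mice, orange points CL316,243 mice 1 to 3, stars the muscle-rich CL316,243 mouse 4 and bars group means. The groups are separate for every gene drawn except Adrb3, and the star is the highest CL316,243 value in each of the 9 genes drawn that rose.

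Genes of mitochondrial fuel burning rose together. Of 21 genes of mitochondrial fatty acid oxidation, 19 rose and none fell, with or without mouse 4 (median 1.09 and 1.05). Acadvl, very long-chain acyl-CoA dehydrogenase, read 173, 141, 127 and 140 FPKM under saline and 629, 520, 500 and 719 FPKM under CL316,243 (change 2.01, SE 0.14, adjusted p = 4.8e-08). Acaa2, Hadhb and Acadl, which carry out later steps of the same spiral or act on shorter chains, rose by 2.01, 1.88 and 1.75. Cpt1a, the liver form of the enzyme for which Cpt1b is the muscle form, did not follow: it read 14.3 to 17.7 FPKM under saline and 9.23 to 12.1 FPKM under CL316,243 (change -0.53, SE 0.24, adjusted p = 0.17; adjusted p = 0.0051 with the replicate block). Of 22 genes of the tricarboxylic acid cycle and pyruvate dehydrogenase, 20 rose and none fell (18 without mouse 4). Sucla2, a subunit of succinyl-CoA synthetase, rose by 1.76 (SE 0.17). The cytosolic Mdh1 (0.30) and the kinase gene Pdk4 (0.93, SE 0.42) were the 2 that missed the threshold.

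The respiratory chain rose by about 1 log2 unit. Of 36 complex I subunits 32 rose (26 without mouse 4), and all 36 changes were positive, from 0.29 for Ndufb10 to 1.28 for Ndufa10. Of 38 subunits of complexes II to V 34 rose, with or without mouse 4, by 0.51 to 1.5; none fell in either set. The 4 that did not pass were all of ATP synthase: Atp5j and the 3 genes for its membrane ring subunit, Atp5g1, Atp5g2 and Atp5g3, which encode the same mature protein; Atp5g2 (0.23) passed with the replicate block (adjusted p = 0.0493). Atp5g1 read 65.8 to 83.8 FPKM under saline and 40.2 to 51.1 FPKM under CL316,243 (change -0.60, SE 0.23, adjusted p = 0.11; adjusted p = 0.0056 with the replicate block), while Atp5b, the catalytic beta subunit, rose by 1.21 (SE 0.11, adjusted p = 6e-07). As a share of the summed FPKM, complexes II to V took 2.44% to 2.97% in the saline mice and 4.71% to 5.8% in the CL316,243 mice, and complex I took 1.2% to 1.38% against 1.91% to 2.45%.

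Some of the genes that build mitochondria passed. Of 78 mitochondrial ribosomal proteins, 14 rose and none fell (7 without mouse 4), with a median of 0.17 and a highest change of 0.78 for Mrps36, whose product has since been placed in the oxoglutarate dehydrogenase complex. Of 15 regulators of mitochondrial biogenesis 3 rose and none fell, with or without mouse 4, namely Ppara, Ppargc1b and Tfb2m, a mitochondrial transcription factor (0.56, SE 0.10), and the median of the list was 0.03. Esrra, the nuclear receptor ERRalpha, read 25.7 to 34.4 FPKM and 31.2 to 54.3 FPKM (change 0.42, SE 0.16, adjusted p = 0.11; adjusted p = 0.022 with the replicate block).

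Genes that make fatty acids rose along with those that burn them. Of 20 genes of fatty acid synthesis 10 rose and 2 fell (8 and 1 without mouse 4; median 0.83). Elovl6, which lengthens palmitate, read 34.5, 10.4, 15.5 and 39.0 FPKM in saline mice 1 to 4 and 237, 182, 156 and 249 FPKM in CL316,243 mice 1 to 4 (change 3.16, SE 0.47, adjusted p = 0.00016). Acacb and Acaca, the acetyl-CoA carboxylases, rose by 1.98 (SE 0.22) and 1.5 (SE 0.28), Slc25a1, the mitochondrial citrate carrier, by 1.39, and Fasn, fatty acid synthase, by 1.10 from 688 to 1605 FPKM up to 1832 to 2492 FPKM. Acly, which splits citrate to acetyl-CoA in the cytosol, rose by 1.80 (SE 0.49, adjusted p = 0.02), and missed the threshold without mouse 4 at a change of 1.79 (adjusted p = 0.0525; 0.0013 to 0.087 over all alternatives). Saline mice 1 and 4 were above saline mice 2 and 3 in Acaca, Acly, Fasn and Elovl6. The 2 genes that fell, Fads1 (-0.70) and Elovl1 (-0.48), act on polyunsaturated and very long chains; Elovl1 missed the threshold without mouse 4 (adjusted p = 0.072; 0.00039 to 0.074 over all alternatives).

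Of 19 genes of glucose uptake and glycolysis 11 rose and none fell (9 without mouse 4; median 0.91). Slc2a4, the insulin-responsive glucose transporter GLUT4, read 93.1 to 111 FPKM under saline and 160 to 215 FPKM under CL316,243 (change 0.91, SE 0.16), Eno1 rose by 1.31 and Pkm by 1.43. Gapdh rose by 1.22 (SE 0.30), from 1189 to 1791 FPKM up to 2891 to 4181 FPKM, so it was not level between these groups. Slc2a5, the fructose transporter GLUT5, rose by 3.34 (SE 0.52) from 0.40 to 4.31 FPKM up to 18.1 to 36.8 FPKM, and Tkt, transketolase of the pentose phosphate pathway, by 1.52 (SE 0.27). Of 22 genes of branched-chain amino acid breakdown 11 rose and 1 fell, Bcat1 (10 and 0 without mouse 4). Those that rose include Bckdha of the committed step (1.05, SE 0.11) and the later enzymes Mcee, Pcca and Hibadh (0.68, 0.66 and 0.64). Of 19 peroxisomal genes 6 rose and none fell (3 without mouse 4), with Acaa1b highest at 1.09 (SE 0.20). Of 21 genes of fatty acid uptake and triglyceride synthesis 5 rose and none fell (4 without mouse 4; 7 rose and 3 fell with the replicate block): Apoc2, the cofactor of lipoprotein lipase (1.99), Apoc1 (1.72), the glycerol kinase gene Gk (0.87), Gpam (0.72) and Gpd1 (0.77), which missed the threshold without mouse 4 (0.63, adjusted p = 0.12; 0.0052 to 0.12 over all alternatives). Of 19 genes of cholesterol synthesis 1 rose (Pmvk, 0.85) and 2 fell (Hmgcs1, -1.45, SE 0.32, and Mvk, -0.57); without mouse 4 Pmvk and Mvk missed the threshold, and with the replicate block 2 rose and 2 fell. Beside the 5.56% and 5.86% of all genes, these counts do not set the list apart.

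**Figure D3:**
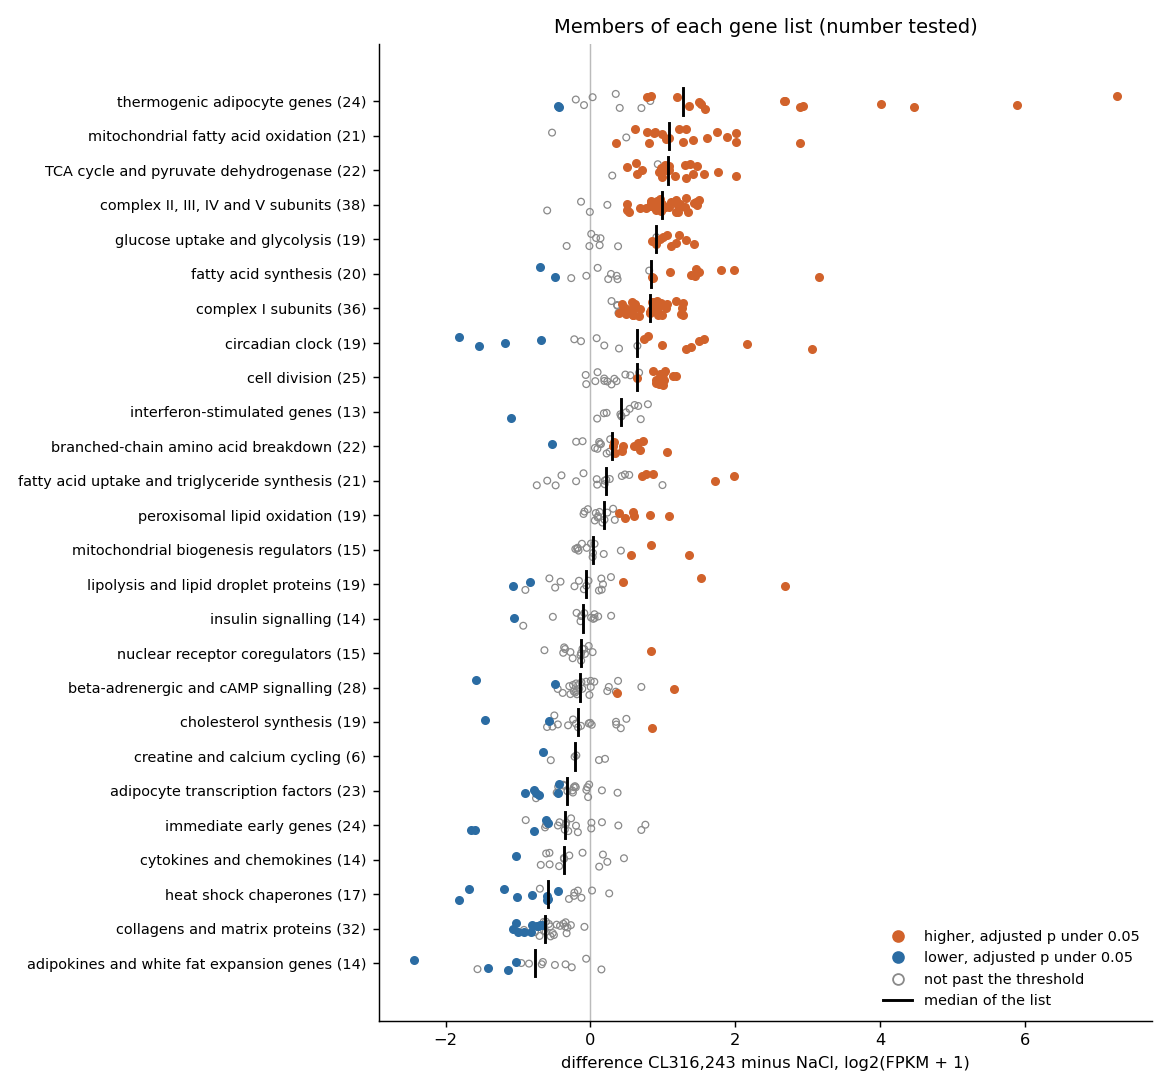
Change of each member of the pathway gene lists between CL316,243 and saline, as a difference in mean log2(FPKM + 1); filled points passed an adjusted p of 0.05 (orange higher, blue lower), open points did not, and bars mark the median of each list. Lists are ordered by their median, from -0.76 for adipokines and white fat expansion genes to 1.27 for thermogenic genes.

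The receptor that CL316,243 binds showed no difference past the threshold. Adrb3 read 240, 259, 207 and 156 FPKM in saline mice 1 to 4 and 229, 253, 226 and 155 FPKM in CL316,243 mice 1 to 4 (change 0.00, SE 0.18, adjusted p = 0.99), far above the related receptor gene Adrb1 (2.14 to 4.70 FPKM) in every library. Downstream of it, Adcy5, an adenylyl cyclase, fell by 1.58 (SE 0.31, adjusted p = 0.0021): it read 23.2, 32.9, 38.4 and 25.1 FPKM under saline and 7.11, 11.6, 11.7 and 7.11 FPKM under CL316,243, with no overlap. Arrb1, a beta-arrestin that ends receptor signalling, fell by 0.48 (SE 0.12). Rgs2, a regulator of G protein signalling, rose by 1.15 (SE 0.25) and Gnas, the stimulatory G protein subunit, by 0.36 (SE 0.10, adjusted p = 0.021; 0.068 without mouse 4 and 0.0016 to 0.068 over all alternatives). The other 24 of 28 genes of the pathway did not pass, and the median of the list was -0.14. Without mouse 4, 1 rose and 2 fell, and with the replicate block 4 rose and 4 fell. Beside the 5.56% and 5.86% of all genes, 2 higher and 2 lower of 28 do not set the list apart.

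Lipolysis genes split. Pnpla2, the lipase ATGL that takes the first fatty acid from a triglyceride, rose by 0.45 (SE 0.14, adjusted p = 0.041; 0.11 without mouse 4 and 0.0011 to 0.11 over all alternatives), while both of its protein inhibitors fell: G0s2 read 686 to 909 FPKM under saline and 316 to 503 FPKM under CL316,243 (-1.07, SE 0.24, adjusted p = 0.0064), and Hilpda read 11.0 to 13.0 FPKM and 4.90 to 7.09 FPKM (-0.84, SE 0.18, adjusted p = 0.0042). Lipe, hormone-sensitive lipase, and Mgll, monoglyceride lipase, gave changes of -0.06 (SE 0.18) and -0.22 (SE 0.13) that missed the threshold. Of the perilipin genes on the list, Plin5 rose, as given above. Plin1 and Plin4 read 697 to 888 FPKM and 313 to 430 FPKM after CL316,243, below their saline ranges of 1017 to 1452 FPKM and 496 to 867 FPKM, but missed the threshold (-0.57, adjusted p = 0.083, and -0.90, adjusted p = 0.056; 0.0089 and 0.0036 with the replicate block). In all, 3 of 19 genes on the list rose, Cidea and Plin5 beside Pnpla2, and 2 fell (2 and 2 without mouse 4, 3 and 5 with the replicate block). Over all genes 5.56% were called higher and 5.86% lower. The median of the list, -0.06, was that of all genes, so the list as a whole did not move.

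Some genes of white fat went the other way. Sfrp5, a secreted inhibitor of Wnt signalling that marks expanding white fat, fell by 2.44 (SE 0.53, adjusted p = 0.0052): it read 37.7, 137, 175 and 83.9 FPKM in saline mice 1 to 4 and 13.7, 26.6, 32.8 and 5.75 FPKM in CL316,243 mice 1 to 4. Mest, an imprinted gene that tracks fat cell enlargement, fell by 1.41 (SE 0.33), from 43.7 to 88.3 FPKM down to 13.3 to 35.9 FPKM. Lep, leptin, read 371, 725, 804 and 456 FPKM against 199, 367, 288 and 194 FPKM (-1.15, SE 0.33, adjusted p = 0.027), and Cfd, the complement protease adipsin, read 10311 to 13039 FPKM against 5212 to 6499 FPKM (-1.03, SE 0.32, adjusted p = 0.041). The falls of Lep and Cfd missed the threshold without mouse 4, at adjusted p = 0.095 and 0.072 with changes of -1.02 and -1.09, and ranged to 0.10 and 0.16 over the alternatives. Adipoq, adiponectin, missed the threshold with all 8 libraries (-0.26, SE 0.19). Of the 14 genes on the list 4 fell and none rose (2 and 0 without mouse 4, 9 fell with the replicate block). Among the 10 adipocyte markers Cfd alone passed and none did without mouse 4, with a median of -0.08 (2 fell with the replicate block). Saline mice 2 and 3 were above saline mice 1 and 4 in Sfrp5, Mest and Lep, the opposite of their order in the lipogenic genes.

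Transcription factors of the adipocyte also fell where they changed: 6 of 23 fell and none rose (2 and 0 without mouse 4). Rxrg, a retinoid X receptor, read 21.6 to 25.7 FPKM under saline and 11.1 to 14.4 FPKM under CL316,243 (-0.91, SE 0.21), and Thra, thyroid hormone receptor alpha, 63.0 to 78.3 FPKM and 34.5 to 48.0 FPKM (-0.76, SE 0.16); Tle3, Ebf1, Nr1h3 and Prdm16 were the others, none of them past the threshold without mouse 4. Pparg, the master regulator of adipocytes, overlapped between groups at 166 to 200 FPKM and 188 to 226 FPKM (0.16, SE 0.18, adjusted p = 0.64). Among 15 coregulators of nuclear receptors only Ppargc1b passed, with or without mouse 4, and with the replicate block 4 fell. Beside the 5.56% of all genes called higher, 1 of 15 does not set the list apart. The 12 genes with the largest falls that held without mouse 4 include several outside these lists. Dtx4, a ubiquitin ligase of the Notch pathway, fell by 1.91, Slc25a25, a mitochondrial ATP-Mg carrier, by 1.75, Timp4, a metalloproteinase inhibitor, by 1.70, and Cdkn1a, the cell cycle inhibitor p21, by 1.55. The tubulin gene Tuba1a fell from 951 to 1070 FPKM to 189 to 473 FPKM, a change of -1.74 (SE 0.36), and Tuba1b by 1.24 (SE 0.22). Among abundant secreted products Rarres2, which encodes chemerin, fell by 1.23 (SE 0.23) and Igfbp4 by 1.06 (SE 0.17).

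Clock genes moved in opposite directions. In the circadian clock ARNTL (BMAL1) with CLOCK or NPAS2 drives transcription from E-boxes, the products PER, CRY and NR1D repress it, and DBP, TEF and HLF against NFIL3 pass the rhythm on through D-boxes, while ROR and NR1D proteins compete at elements in the Arntl promoter. Of 19 clock genes 9 rose, 4 fell and 6 did not pass (6 rose and 4 fell without mouse 4). The 4 that fell were Arntl, Npas2, Nfil3 and Clock, 3 of them the activators of the loop. Arntl (chr7:113178471-113314126, GRCm38) read 16.0, 8.89, 12.6 and 18.8 FPKM in saline mice 1 to 4 and 3.79, 4.05, 3.50 and 1.73 FPKM in CL316,243 mice 1 to 4 (-1.81, SE 0.30, adjusted p = 0.00048). Npas2 fell from 2.14 to 4.02 FPKM to 0.11 to 0.65 FPKM (-1.54, SE 0.17), Nfil3 by 1.18 (SE 0.24) and Clock by 0.69 (SE 0.16). No CL316,243 value of these 4 genes overlapped a saline value.

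Dbp, the D-box activator, rose most: it read 12.2, 17.9, 8.82 and 7.54 FPKM under saline and 81.4, 83.9, 91.8 and 152 FPKM under CL316,243 (3.05, SE 0.29, adjusted p = 1.5e-06). Bhlhe40 and Bhlhe41, repressors that also bind E-boxes, rose by 2.16 (SE 0.39) and 1.5 (SE 0.27), and Per3, Tef and Nr1d2 by 1.39, 1.33 and 0.99. Ciart, a repressor of ARNTL and CLOCK, rose by 1.57 (SE 0.41, adjusted p = 0.017) but rested in part on mouse 4, at 12.0 FPKM beside 2.16 to 3.06 FPKM in mice 1 to 3 and 0.45 to 0.98 FPKM in the saline mice; without it the change was 1.11 (adjusted p = 0.07; 0.0037 to 0.07 over all alternatives). Hlf, too, rose with all 8 libraries and not without mouse 4. Per1, Per2, Cry1 and Cry2 did not pass, and the saline mice themselves differed there: Per2 read 1.12, 5.32, 4.68 and 1.55 FPKM in saline mice 1 to 4, with mice 1 and 4 low. No source used here states the hour at which each mouse was sampled.

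**Figure D4:**
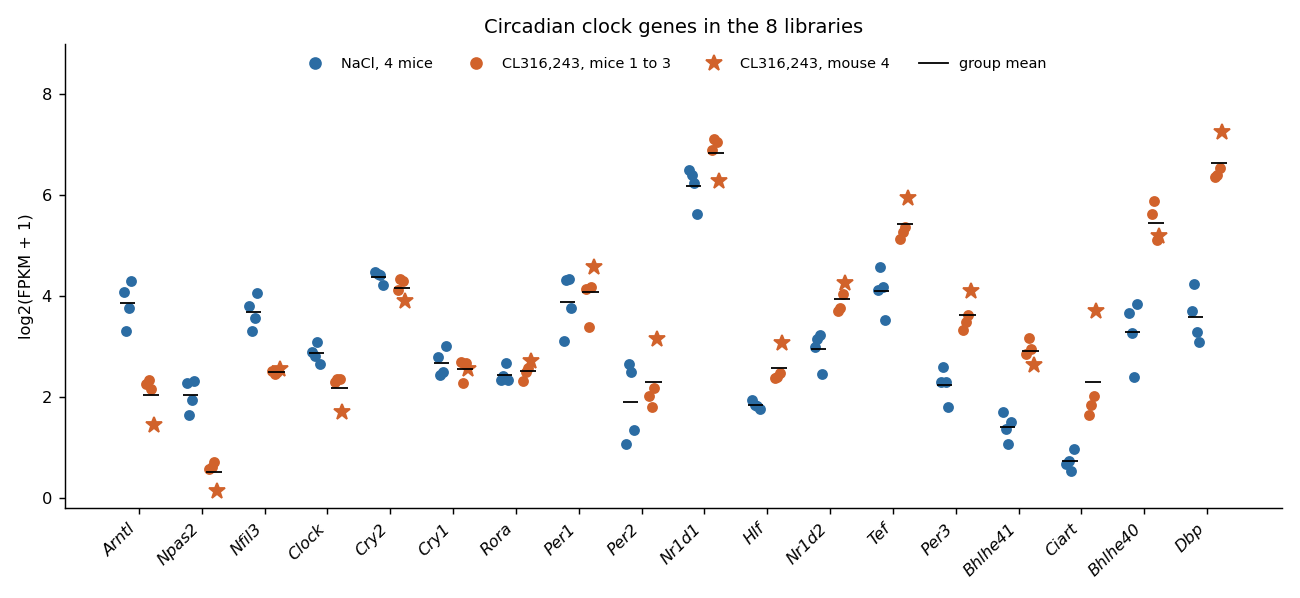
Levels of 18 of the clock genes as log2(FPKM + 1) in the 8 libraries, ordered by the change; blue points are saline mice, orange points CL316,243 mice 1 to 3, stars CL316,243 mouse 4 and bars group means. The 4 genes at the left with falls that passed the test and Dbp at the right show no overlap between groups.

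Promoters of 4 of these genes are printed to show the elements through which the loop is known to act, from 250 bases before to 50 after a RefSeq start (GRCm38.p6, on the strand of the gene, 5′ to 3′). Capitals mark the searched element: TAGGTCA, the core bound by ROR and NR1D proteins, in Arntl (chr7:113207261-113207560, plus strand) and Nfil3 (chr13:52980990-52981289, minus strand), which fell; TTATGTAA, a D-box, in Per3 (chr4:151044616-151044915, minus strand), and CACGTG, an E-box, in Ciart (chr3:95882179-95882478, minus strand), which rose. Both strands were searched.
Arntl: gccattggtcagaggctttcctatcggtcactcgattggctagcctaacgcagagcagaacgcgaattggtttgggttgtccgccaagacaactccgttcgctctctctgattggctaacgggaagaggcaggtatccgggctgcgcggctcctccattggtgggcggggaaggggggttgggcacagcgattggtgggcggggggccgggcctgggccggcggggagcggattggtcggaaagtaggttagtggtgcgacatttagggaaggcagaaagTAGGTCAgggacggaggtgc
Nfil3: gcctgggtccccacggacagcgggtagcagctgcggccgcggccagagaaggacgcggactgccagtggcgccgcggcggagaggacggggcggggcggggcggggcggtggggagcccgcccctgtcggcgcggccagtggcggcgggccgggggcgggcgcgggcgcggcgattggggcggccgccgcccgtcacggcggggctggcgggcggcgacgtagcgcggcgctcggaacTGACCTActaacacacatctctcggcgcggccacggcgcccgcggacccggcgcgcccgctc
Per3: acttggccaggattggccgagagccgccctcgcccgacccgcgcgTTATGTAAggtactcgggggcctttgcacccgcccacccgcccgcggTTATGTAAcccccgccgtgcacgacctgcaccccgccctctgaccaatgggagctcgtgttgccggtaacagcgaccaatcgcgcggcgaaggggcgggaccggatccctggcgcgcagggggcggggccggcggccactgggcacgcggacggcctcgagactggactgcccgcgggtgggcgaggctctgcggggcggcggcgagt
Ciart: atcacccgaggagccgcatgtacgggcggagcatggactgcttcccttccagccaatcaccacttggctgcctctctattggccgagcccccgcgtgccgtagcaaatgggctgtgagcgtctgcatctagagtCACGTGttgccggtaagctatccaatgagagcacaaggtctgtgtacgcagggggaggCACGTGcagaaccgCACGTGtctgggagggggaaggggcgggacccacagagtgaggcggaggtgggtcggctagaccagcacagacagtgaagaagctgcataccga

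TAGGTCA occurred in the promoter window of 2.97% of 27025 genes with an entry and in 2 of the 16 tested clock genes with an entry, Arntl and Nfil3. Its share was 4.11% of genes called lower, 3.57% of those called higher and 2.28% of all tested. The D-box occurred in 1.11% of all and in Per3 alone of the 16, at 2 places. Its share was 0.357% of genes called lower, 1.32% of those called higher and 0.664% of all tested. The E-box occurred in 8.09% of all and in 5 of the 16: Per1, Cry1, Tef, Bhlhe41 and Ciart, the last with 3 copies. The share was similar in other lists, at 6 of 20 immediate early genes and 3 of 12 heat shock genes with an entry. Among the genes called higher the E-box share was 9.96% of 532 with an entry, among those called lower 13.8% of 560, and among all tested 11.8% of 9493.

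The stress and early response genes that passed the test were lower. Of 17 heat shock genes 9 fell and none rose (6 and 0 without mouse 4; 3 fell and 1 rose with the replicate block). Hspa8, the constitutive HSC70 chaperone, read 954, 1482, 1258 and 1413 FPKM under saline and 711, 579, 607 and 595 FPKM under CL316,243 (-1.02, SE 0.14, adjusted p = 8.5e-05), and Dnaja1, its cochaperone, fell by 0.81 (SE 0.18). The inducible genes spread widely among the saline mice. Hspa1a read 2.07, 33.1, 9.56 and 5.93 FPKM there and 1.52 to 2.38 FPKM in the CL316,243 mice (-1.68, SE 0.46, adjusted p = 0.022), and Hsph1 read 12.9, 51.3, 31.8 and 22.6 FPKM against 9.39 to 14.5 FPKM (-1.20, SE 0.29, adjusted p = 0.011). Saline mouse 2 was highest in both and the groups overlapped; with the replicate block the adjusted p was 0.077 and 0.073. Of 24 immediate early genes 5 fell and none rose (1 and 0 without mouse 4, 6 fell and 1 rose with the replicate block). Over all genes 5.86% were called lower, and 2.7% without mouse 4, beside which 1 of 24 does not set the list apart. The 5 were Fos, Fosb, Fosl2, Jun and Btg2. Fosb stayed past the threshold without mouse 4. With the replicate block Fosb and Btg2 missed it (limma, adjusted p = 0.067 and 0.1). Fos read 29.5, 45.6, 20.4 and 83.4 FPKM under saline and 5.17, 12.1, 17.2 and 17.1 FPKM under CL316,243 (-1.65, SE 0.52, adjusted p = 0.044; 0.061 without mouse 4 and 0.0072 to 0.16 over all alternatives), and Egr1 missed the threshold (-0.89, SE 0.49).

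The promoters of the chaperone gene Hsph1 (chr5:149636266-149636565, minus strand) and of Chordc1, a cochaperone of HSP90 (chr9:18292017-18292316, plus strand), which both fell, are printed because they hold the heat shock element GAANNTTCNNGAA, in capitals on either strand. It occurred in the window of 0.662% of the 27025 genes and of 4 of the 12 tested heat shock genes with an entry, Hspe1 and Hspd1 being the other 2. Those 2 did not pass the test (-0.12 and 0.26), though Hspd1 passed with the replicate block (limma, adjusted p = 0.03). The element's share was 0.536% of 560 genes called lower with an entry, 0.376% of 532 called higher and 0.579% of 9493 tested. It therefore does not mark the genes that fell.
Hsph1: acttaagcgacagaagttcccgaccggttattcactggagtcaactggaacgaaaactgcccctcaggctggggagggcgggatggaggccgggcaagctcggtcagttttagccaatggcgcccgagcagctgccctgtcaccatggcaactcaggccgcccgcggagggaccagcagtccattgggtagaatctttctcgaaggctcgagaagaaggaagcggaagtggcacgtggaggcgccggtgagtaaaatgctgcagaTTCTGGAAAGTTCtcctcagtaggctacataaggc
Chordc1: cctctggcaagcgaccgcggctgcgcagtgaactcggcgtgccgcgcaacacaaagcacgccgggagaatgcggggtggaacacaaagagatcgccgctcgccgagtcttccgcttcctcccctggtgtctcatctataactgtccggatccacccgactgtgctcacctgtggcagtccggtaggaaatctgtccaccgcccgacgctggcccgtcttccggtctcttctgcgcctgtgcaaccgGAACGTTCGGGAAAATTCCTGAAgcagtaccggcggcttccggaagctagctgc

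Matrix genes were lower as a set of values: all 32 collagens, matrix proteins and their enzymes had a negative change, 10 passed the test (5 without mouse 4; 25 with the replicate block) and the median was -0.63. Col6a3 read 30.1, 46.5, 42.0 and 34.2 FPKM under saline and 17.2, 18.4, 18.5 and 17.7 FPKM under CL316,243 (-1.03, SE 0.23, adjusted p = 0.0058). Col5a1 fell by 1.00 (SE 0.24), Col15a1, whose call was lost without mouse 4 (adjusted p = 0.097; 0.0024 to 0.097 over all alternatives), by 1.07 (SE 0.30) and Bgn, a proteoglycan, by 0.74 (SE 0.18). Adipocyte progenitor markers, from the cells that make much of this matrix, gave a median of -0.08 with 0 of 11 passing with all 8 libraries or without mouse 4 (1 with an unadjusted p under 0.05; 2 fell with the replicate block); their summed level was 398 to 517 FPKM in saline mice and 353 to 432 FPKM in CL316,243 mice. In a piece of whole tissue, fewer cells of a type and less RNA per cell cannot be told apart. All 15 macrophage markers had a negative change as well (median -0.63), and none passed in the limma fit to all groups, with or without mouse 4. In that fit 7 had an unadjusted p under 0.05. With the replicate block 11 fell, and with the 8 libraries alone and no block 9 fell. The summed level of the markers was 937 to 1309 FPKM under saline and 522 to 819 FPKM under CL316,243. C1qc, a complement component made by macrophages, came nearest, at 130 to 182 FPKM and 67.9 to 104 FPKM (-0.84, SE 0.27, adjusted p = 0.0526; 0.011 with the replicate block). Of 41 tested markers of endothelium, B cells, T cells, red blood cells and nerve none passed, with or without mouse 4 (1 with an unadjusted p under 0.05); with the replicate block 2 endothelial markers rose and 1 nerve marker fell. With or without mouse 4, Cxcl14 alone of 14 cytokine genes passed, with a fall (-1.02, SE 0.26), and 5 fell with the replicate block. Of 13 interferon-stimulated genes Ifi27l2a alone passed, with or without mouse 4. It fell from 7517 to 9652 FPKM to 3642 to 4122 FPKM (-1.10, SE 0.27, adjusted p = 0.011). The other 12 had positive changes that did not pass, and the median of the list was 0.43. Beside the 5.86% of all genes called lower, 1 of 14 and 1 of 13 do not set these lists apart.

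**Figure D5:**
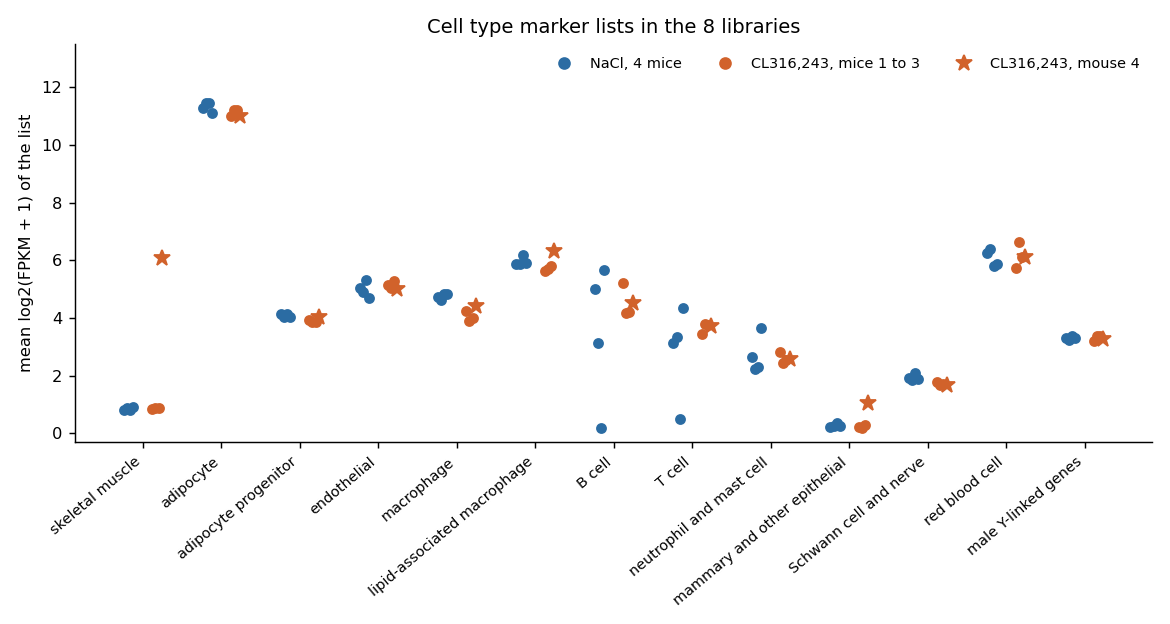
Mean log2(FPKM + 1) of the genes on 13 marker lists in each of the 8 libraries; blue points are saline mice, orange points CL316,243 mice 1 to 3 and stars CL316,243 mouse 4. Mouse 4 stands apart in skeletal muscle markers, at 6.08 against 0.81 to 0.90, and a saline library, mouse 3, lies at 0.19 in B cell and 0.49 in T cell markers.

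Genes of cell division rose from low levels. Of 29 on the list 25 passed the expression filter. Among these 25, 12 rose and none fell, with or without mouse 4 (median 0.64 and 0.70). The filter can admit a gene through 1 group alone. Prc1, for example, read 0.61 to 0.74 FPKM under saline and 2.04 to 3.51 FPKM under CL316,243. For genes this low, the count and the median therefore depend in part on the filter. Mki67, the proliferation antigen Ki-67, read 1.04, 1.40, 0.95 and 1.56 FPKM in saline mice 1 to 4 and 4.13, 3.03, 3.90 and 3.16 FPKM in CL316,243 mice 1 to 4 (1.03, SE 0.19, adjusted p = 0.0013). Prc1, Rrm2, Ccna2 and Cdk1, which act in mitosis, nucleotide supply and the cyclin steps between, rose by 1.18, 1.15, 1.01 and 1.00, and Cdkn1a, given above, fell. The helicase genes Mcm2 to Mcm7 and the clamp gene Pcna, which load onto DNA for replication, did not pass. Their changes ran from -0.07 to 0.36. Nor did Aurka, Aurkb and Plk1, which act in mitosis, Rrm1 and Tyms of nucleotide supply, or E2f1, so the calls do not follow these functions. Among the saline mice the mean deviation of the list was lowest in mouse 3, nearly free of lymphocyte RNA, at -0.21, and highest in mouse 4, whose B and T cell markers summed to 627 and 271 FPKM, at 0.29. In the CL316,243 mice, whose B and T cell sums of 185 to 455 and 134 to 168 FPKM lay within the saline range, it was 0.47 to 0.80. The part of lymphocyte RNA in these values was not tested.

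A few large changes fall outside the lists. Chchd10, a protein of the mitochondrial intermembrane space, rose from 43.1 to 105 FPKM up to 441 to 790 FPKM (3.11, SE 0.34, adjusted p = 4.7e-06). Aspg, an asparaginase gene, rose by 3.21 (SE 0.37) and Ttc25, a cilium protein gene, by 3.04 (SE 0.32). The major urinary protein genes Mup10 and Mup2, lipocalins best known from liver, rose by 3.43 (SE 0.43) and 3.37 (SE 0.48): Mup10 read 6.38, 4.86, 11.5 and 5.74 FPKM under saline and 83.1, 49.3, 59.5 and 192 FPKM under CL316,243. These genes lie in a cluster of near-identical copies on chromosome 4, so the split of reads among them is uncertain.

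Among the called genes the extreme values were spread unevenly over the mice. CL316,243 mouse 4 held the highest CL316,243 value in 391 of the 668 genes that rose (58.5%) and the lowest in 375 of the 705 that fell (53.2%). Mouse 1 came next with 151 and 150, and mouse 2 had 46 and 95. The genes were called with mouse 4 in the fit. For these counts and the saline count below, the share over all genes tested was not computed. Averaged over the 24 thermogenic genes, the difference from the saline mean was 1.85, 1.53, 1.56 and 2.18 log2 units in CL316,243 mice 1 to 4, and over the 38 subunits of complexes II to V it was 0.93, 0.79, 0.83 and 1.13. Many of these genes are also expressed in muscle, and the part of muscle RNA in the values of mouse 4 was not tested. Cox6a2, the muscle form of a cytochrome oxidase subunit, read 45.3 FPKM in mouse 4 and 0.28 to 1.76 FPKM in the other 7 libraries. Among the genes whose call was lost without mouse 4, those with the largest changes were Gm21104, Hspa1b, Acly, Fos, Ciart and Lbp. Lbp, which binds bacterial lipopolysaccharide, read 58.5 to 101 FPKM under saline and 18.0 to 35.5 FPKM under CL316,243 (-1.56, SE 0.40, adjusted p = 0.015; without mouse 4 -1.39, adjusted p = 0.06, and 0.00065 to 0.06 over all alternatives). Hspa1b spread as widely among saline mice as Hspa1a (-1.81, SE 0.58, adjusted p = 0.0489; 0.13 with the replicate block). In the saline group mouse 1 held the highest value in 349 of the 668 rising genes (52.2%).

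The response was set beside that of Ncoa1 knockout males of the same table, of which 4 had CL316,243 and 2 had saline, 1 of these muscle-rich. The mean log2(FPKM + 1) of the muscle markers was 5.74 in that saline library and 2.50 in the other. It was 3.74 in knockout CL316,243 mouse 4 and 0.71 to 0.78 in knockout CL316,243 mice 1 to 3. The difference between the 2 responses passed the threshold for 4 of 12022 genes (0.0333%), all with a positive value, and 748 had an unadjusted p under 0.05. The wild-type and knockout responses share no library. Ucp1 changed by 7.28 in wild-type mice; in the knockouts the difference was 2.31, from 4.24 and 0.18 FPKM to 6.97, 10.7, 23.8 and 9.10 FPKM (difference 4.97, SE 0.79, adjusted p = 0.019). Mup10 and the neighbouring Gm21320 rose in wild-type mice, by 3.43 and 3.36. In the knockouts the differences were -0.65 and -1.04, and their saline mice read 273 and 360 FPKM of Mup10 and 1450 and 1474 FPKM of Gm21320 (differences 4.08 and 4.40). Sult1e1, estrogen sulfotransferase, gave -0.36 in wild-type mice (SE 0.17, adjusted p = 0.19; 0.028 with the replicate block) and -2.20 in the knockouts, from 30.71 and 32.97 FPKM to 3.96 to 8.93 FPKM (difference 1.84, SE 0.26, adjusted p = 0.013). The counts rest on the 2 knockout saline libraries: without the muscle-rich one no gene passed (limma; 669 had an unadjusted p under 0.05) and without the other 1 did, as without wild-type CL316,243 mouse 1, wild-type saline mouse 2 or either of knockout CL316,243 mice 1 and 2.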

How the data were processed

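The deposited FPKM values came from the authors, who used HISAT2 2.0.4 and the builds GRCm38 and mm10, per the submitters' processing notes; no source used here states the counting step. The table of 24 libraries that holds these 8 was used alone. FPKM keeps no read total: the value of 1 read, relative to the other libraries, could be set from 7 to 27 genes a library and ran from 0.909 to 1 over the 8, so absolute depth and counting error are unknown and precision rests on the number of mice.

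Changes are differences in mean log2(FPKM + 1), with the pseudocount of 1 understating the change of low genes, among 12022 genes that reached 1 FPKM in 4 or more of the 8 libraries. limma 3.58.1 (R 4.3.3) fitted 1 mean for each of the 8 groups in the table, with a variance trend. The groups cover both sexes, both genotypes and both treatments, so SEs and p-values do not measure the spread among the 8 mice alone. The female wild-type saline group held 1 library. In the female knockout saline group, muscle markers made up 13.79% of the FPKM of 1 library and 0.01156% of the other. Two-sided p-values were adjusted by Benjamini-Hochberg over all genes, with a threshold of 0.05. The same fit gave the difference between the wild-type and knockout responses. The fit was tested on simulated data, with normal noise for each gene and no library apart by tissue content. There it called 40% of changes of 0.5 log2 units, 84% of those of 1 and 98% of those of 2. Small true changes can therefore miss the threshold. The simulation does not cover libraries that differ by tissue content.

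Deviations from the group means of same-numbered CL316,243 and saline libraries correlated at 0.212, 0.21, 0.316 and 0.113 across genes. Differently numbered pairs ran from -0.345 to 0.342. CL316,243 mice 2, 3 and 4 each correlated most with the saline mouse of their number, but mouse 1 with saline mouse 4 (0.342). The labels do not say what a number marks, so pairing is uncertain. The main fit is unpaired, and the replicate block was an alternative fitted to the 8 libraries alone. The labels do not say in so many words that each library is a separate animal; if not, p-values measure only the spread between these samples. Alternatives were other scalings, filters, pseudocounts, variance models and groups in the fit, and each replicate left out.

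The libraries and gene lists were chosen with earlier results of these data known. Genes are named by a rule: a set of 16 thermogenic, white fat, clock and control genes, the 12 largest rises and falls that held without the muscle-rich library, up to 4 members of each list by p-value, the 6 largest changes lost without that library, the 8 largest gains and losses in FPKM, and interaction genes. Other list members named, mainly those that missed the threshold or went against their list, were chosen after their values were seen. Some genes that the rule or the lists hold are not reported here. Promoter sequences are from RefSeq on GRCm38.p6. Figures were drawn with matplotlib 3.10.9.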

Additional observations from a re-analysis of the deposited data

Results flagged for a closer look

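A library far from the other 3 of its group was found in 17 of 330 groups of 4 values examined over the genes named and the marker lists, and chance gives about 1 in 20. CL316,243 mouse 4 was the library apart in 9 of the 17. Its skeletal muscle marker score was 6.08, its mammary and epithelial marker score 1.06, its Acta1 867.79 FPKM and its Cox6a2 45.27 FPKM, against 13.31 to 27.63 FPKM of Acta1 and 0.78 to 1.57 FPKM of Cox6a2 in mice 1 to 3. The same mouse stood apart in other genes, with the range of mice 1 to 3 in brackets. These were Atp5b at 2770.38 FPKM (2302.28 to 2357.89), Ebf1 at 19.72 FPKM (27.39 to 28.72) and Clock at 2.29 FPKM (3.95 to 4.17). Hlf stood at 7.41 FPKM (4.23 to 4.55) and Hspd1 at 184.52 FPKM (176.26 to 177.64), the last a small gap. CL316,243 mouse 2 stood apart in Prdm16 at 2.1 FPKM (others 1.84 to 1.85) and in Pdk4 at 43.27 FPKM (others 80.69 to 91.38).

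Among the saline mice, mouse 1 stood apart in Cox7a1 at 55.11 FPKM, mouse 2 in Dtx4 at 14.81 FPKM and in the predicted gene Gm21104 at 6.57 FPKM, where the other 3 were listed at 0. Mouse 3 stood apart in Prc1 at 0.61 FPKM (others 0.73 to 0.74) and in the mammary and epithelial score at 0.37 (others 0.24 to 0.26). Mouse 4 stood apart in Ppara at 1.1 FPKM (others 1.96 to 1.98).

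The response differed between wild-type and knockout males, by the test of the difference, in Ucp1 (4.97 log2 units), Mup10 (4.08), Gm21320 (4.4) and Sult1e1 (1.84).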

How the results depend on the processing

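Of the 118 genes named that passed the threshold, 87 passed in all 22 alternatives for the wild-type comparison and none changed sign. Leaving out 1 of the 8 libraries gave 818 to 1140 genes in all, 494 to 594 higher and 324 to 550 lower, and took the call from 11 to 24 of the 118. The fit to the 8 libraries alone gave 2601 genes, 976 higher and 1625 lower, and adding the replicate number as a block gave 2535, of which 1320 were among the 1373 called with all groups and 1557 were lower. Where the report prints a blocked value it changed a call; the block changed the call of 15 named genes in all. Array weights gave 3255 genes, 1197 higher and 2058 lower, and the male libraries alone, chosen after seeing the data, 1181 lower. Rises made up 48.7% of calls with all groups, 37.5% with the 8 libraries, 38.6% with the block, 36.8% with array weights and 60.4% without CL316,243 mouse 4. Scaling moved the median of all genes to between -0.06 and -0.03.

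The difference between wild-type and knockout responses passed for 0 to 6 genes when 1 library was left out, 9 with array weights, 2 with a pseudocount of 0.1, 1 with the muscle score as a covariate, 1 with no filter and 0 with the male libraries alone (1115 at an unadjusted p under 0.05, limma); the knockout libraries left out were added after seeing the data. Small changes that missed the threshold turned sign. With 1 library left out at a time Ppargc1a ran from -0.04 to 0.14, Atp5j from -0.07 to 0.06, Lipe from -0.16 to 0.02, Per1 from -0.07 to 0.42, Mcm7 from -0.14 to 0.02. Ppargc1a was -0.01 with the muscle covariate, -0.06 with array weights and -0.04 with quantile normalization. Atp5j was 0.03 with median-of-ratios scaling, Lipe 0.03 and Mcm7 0.01 with the muscle covariate, and Pcna 0.01 with that covariate and 0.03 with quantile normalization. The cause of these differences was not tested.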
